A study of Mus musculus with 4 samples.

Results

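The transcriptional repressor REST and 9 genes for proteins that it works with were examined as a group of 10 genes, out of 31053 Ensembl genes in each of the deposited tables. The members were taken by their symbols: Rest itself, the corepressors Rcor1, Rcor2 and Rcor3, the demethylase Kdm1a, the scaffold Sin3a, the deacetylases Hdac1 and Hdac2, the methyltransferase Ehmt2 and the phosphatase Ctdsp1. All 10 members passed the filter on low counts in both tables. The members were chosen by the difference of Rest between sorted Ret-EGFP+ and non-EGFP cells, which was already known, so values of the members in the sorted cells are given as a description, without p values.

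Transcript 3′ ends were counted in sorted crypt cells of the small intestine and in organoids. For the first comparison, crypt cells of C57BL/6J RetEGFP/+ knock-in mice, which express EGFP from the Ret locus, were sorted into 5 Ret-EGFP+ and 5 non-EGFP libraries of 1000 cells each. Both groups therefore carry the same knock-in allele, although the sample sheet gives their genotype as WT, and the mice that gave primary cells were 2 to 10 months old. The 10 libraries came from 3 male mice, the mouse behind each library is not given in the sources used here, and libraries of the same mouse are not independent. For the second comparison, wild-type organoids from the proximal small intestine were grown in ENR medium (EGF, Noggin and R-spondin) as controls, or in the same medium with GDNF and its co-receptor GFRA1 at 500 ng/mL, and collected at day 4. Each of 3 experiments, each from a different mouse, gave 2 control and 2 GDNF libraries. Nothing says whether the paired libraries came from separate cultures, so p values measure the spread between these libraries, which may be technical.

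Total counts were 1113006 to 4717549 per sorted library and 1042028 to 2010359 per organoid library. Ret gave 32 to 179 counts in each Ret-EGFP+ library and 0 to 5 in each non-EGFP library. All 10 enteroendocrine markers were called higher in Ret-EGFP+ cells, and all 6 Paneth cell, all 6 tuft cell, all 6 stem cell and all 7 goblet cell markers were called lower. The 7 enterocyte markers went both ways, with 5 called lower and 2 higher, namely the brush border enzyme genes Sis (log2 fold change 1.87, SE 0.20) and Anpep (1.49, SE 0.36). Experiments 1 and 2 of the organoids are described in the methods as coming from female mice. In experiment 1, however, the 4 libraries held 0 to 2 counts of Xist and 19 to 57 counts of the Y-linked Ddx3y, whereas those of experiment 2 held 280 to 531 counts of Xist and 0 of Ddx3y. The libraries of experiment 1 thus went against the sex given for them, and values without this experiment are given with the results.

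REST is a zinc finger protein that binds a DNA element named RE1, found near many genes of neurons and endocrine cells, and keeps these genes silent in other cells. Its amino-terminal part recruits SIN3A with histone deacetylases, and its carboxy-terminal part recruits RCOR1, the histone H3 lysine 4 demethylase KDM1A and HDAC1 and HDAC2. The methyltransferase EHMT2 adds methyl groups to histone H3 lysine 9, and CTDSP1 is a small phosphatase that also acts on REST itself. Rest is known to be low in neurons and in pancreatic islet cells, cell types in which many RE1 genes are active. In the intestine, enteroendocrine cells are the hormone-producing cells of the epithelium and use many of the same secretory genes as neurons.

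Since REST acts through RE1, the element was searched for in promoter windows (250 bases before to 50 bases after a gene's start; RefSeq, GRCm38.p6). The core searched was CAGCACC, any 2 bases, then GGACAG, on both strands. Windows were found for 8 of the 10 members and for 35 of 50 genes in a list of neuronal and endocrine genes known as REST targets. The full core occurred in 0 of the 8 member windows, in 0 of the 35 target windows and in 11 of 27025 genes with a window (0.0407%). Of these 11 genes, 2 were tested in the sorted cells, and 0 were called higher and 0 lower in Ret-EGFP+ cells. With up to 2 letters different, a match occurred in 5 of the 35 known targets (14.3%), in 0 of the 8 members and in 2.22% of all genes with a window. This looser search was chosen after the result of the exact one was seen. The left part CAGCACC alone occurred in 22.9% of the target windows and in 8.14% of all, and the right part GGACAG alone in 22.9% and 24.7%. RE1 elements often lie outside such short windows, and a match does not show binding. Of the other genes examined, a looser match lay in Mcm5, a gene of dividing cells, the enterocyte marker Apoa4 and the corepressor gene Ctbp2. Their log2 fold changes in sorted cells were −5.19 (SE 0.93), −2.35 (SE 0.67) and 0.14 (SE 0.34). The matches in 4 targets are shown because counts of these genes were measured in the sorted cells, with capitals marking the letters that equal the core:
Celsr3: ctccgttCAGCACCgtGGgCAGcacttct
Gria2: tcgattttAGCACCgcGGACAGcgctttg
Syn1: tcggattCAGCACCgcGGtCAGagccttc
Grin1: gcatacagAGaACCagGGACAGtcatccg
Coordinates are those of the printed stretch, which holds flanking bases, and positions counted from the start are those of the match within it. For Celsr3, a cadherin of neurons (chr9:108825913-108825941, on the strand of the gene), the match spanned bases −125 to −111. For the glutamate receptor gene Gria2 (chr3:80802984-80803012, on the opposite strand) it spanned bases −170 to −156, and a weaker match with 2 letters different lay nearer the start. For Syn1, which encodes a protein of synaptic vesicles (chrX:20921127-20921155, on the strand of the gene), the match spanned bases −230 to −216. For Grin1, a subunit of the NMDA receptor (chr2:25319292-25319320, on the opposite strand), it spanned bases −126 to −112 and differed from the core in 2 letters, whereas the other matches shown differed in 1.

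In the sorted cells, Rest was detected in non-EGFP and not in Ret-EGFP+ cells. Rest (ENSMUSG00000029249, chr5:77265491-77286432, plus strand, GRCm38) had 0 counts in each of the 5 Ret-EGFP+ libraries and 326 counts over the 5 non-EGFP libraries. The levels in non-EGFP libraries 1 to 5 were 34.8, 20.7, 21.7, 18.2 and 19.3 CPM (counts per 1000000 of the library total after TMM adjustment), with a mean of 22.9 ± 6.78 CPM (SD, n = 5). Library 1 was the highest, the other 4 lay close together, and the groups did not overlap. A count of 0 over the Ret-EGFP+ libraries allows a level of up to 0.252 CPM (3 counts over the group, counting error only). With the libraries of each group pooled, the non-EGFP level was 24.9 CPM, and against this floor Rest was at least 98.4-fold lower in Ret-EGFP+ cells. Every such bound below compares pooled counts, not the means over libraries. These bounds, and the counting intervals below, take each count as independent. Counts of the sorted libraries may hold copies of the same molecule, so these limits may be too tight. In single Ret-EGFP+ libraries the same floor of 3 counts corresponds to 0.822 to 2.00 CPM, which lies under the lowest non-EGFP level. Counting at the 3′ end does not separate splice forms that share this end. Because these are bulk samples, fewer cells with Rest and less Rest RNA per cell cannot be told apart.

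Zero counts were also found for other genes. Of 13443 genes tested, 331 had 0 counts in all Ret-EGFP+ libraries. Among them, Ascl2, a transcription factor of intestinal stem cells, was the only gene with at least as many counts in the non-EGFP libraries as Rest, with 513. Rest differed in every plate of the sort. Plate 2 held the non-EGFP library with 34.8 CPM, plate 3 held 3 non-EGFP libraries with 18.2 to 21.7 CPM and plate 4 held 1 with 19.3 CPM, each beside Ret-EGFP+ libraries at 0.

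The non-EGFP group was a mixture of other crypt cells. The 6 Paneth cell markers summed to 173208 to 439917 CPM in the non-EGFP libraries and to 2937 to 7213 CPM in the Ret-EGFP+ libraries. Genes of dividing cells, 15 in number and all called lower in Ret-EGFP+ cells, summed to 1007 to 1394 CPM and to 42.1 to 77.3 CPM. The 6 T cell markers summed to 70.3 to 322 CPM in non-EGFP and to 0 to 35.4 CPM in Ret-EGFP+ libraries. Cd8a, a defining marker of cytotoxic T cells, was at 0 in the Ret-EGFP+ libraries, as were the stem cell marker Ascl2 and the tuft cell factor Pou2f3. Each was the only marker of its list at 0 there, and Gzma had 56, Lgr5 60 and Alox5ap 27 counts. Cd8a and Pou2f3 were also low in the non-EGFP libraries, with 48 and 31 counts. In organoids, 5 of the 6 T cell markers had 0 counts and the 6 summed to at most 0.659 CPM, while Rest was at 32.5 to 54.2 CPM. The organoid values do not show which cells of the non-EGFP libraries held Rest. The part of each cell type in the difference of Rest was not tested.

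**Figure D1:**
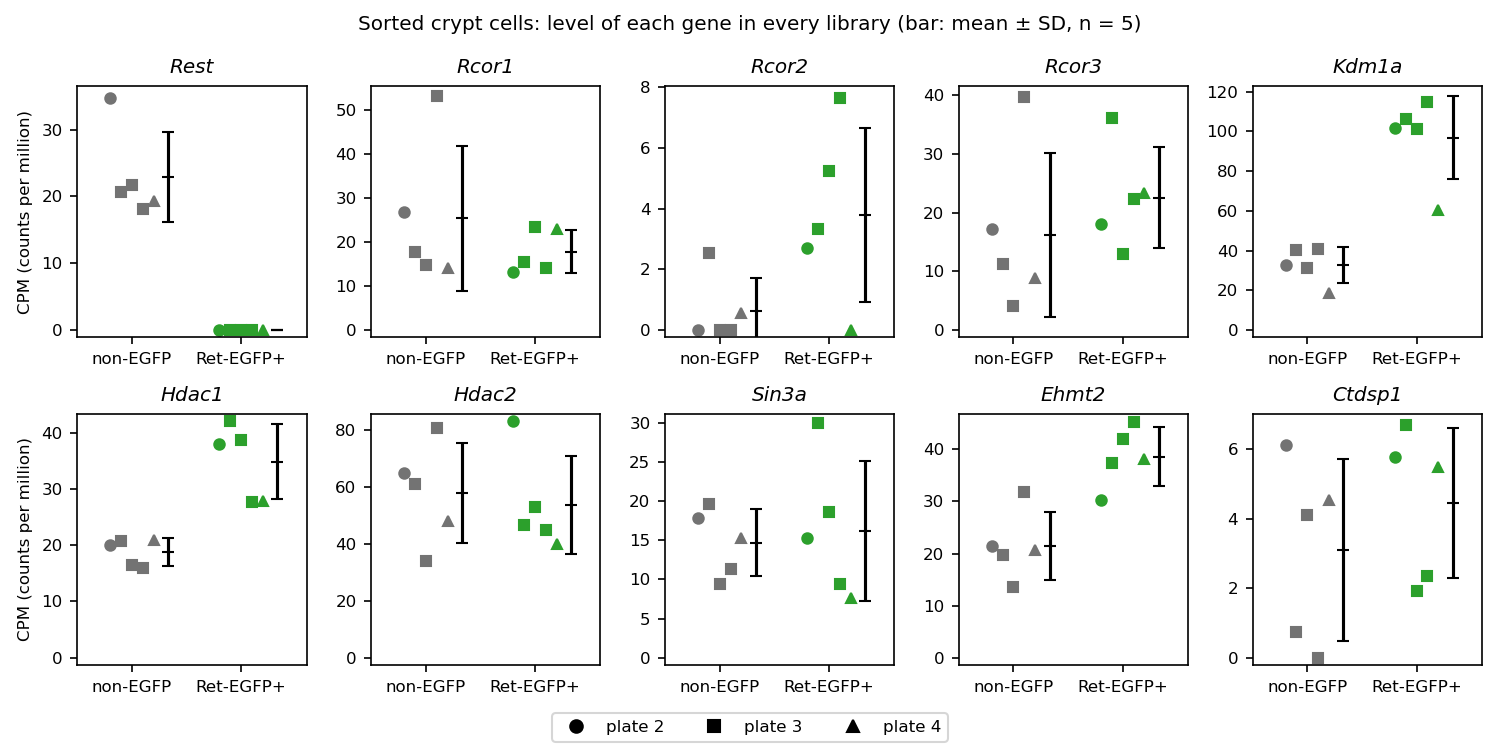
Level of each of the 10 genes in every sorted library, in CPM (y axis of each panel), for non-EGFP (grey) and Ret-EGFP+ (green) libraries. The marker shape gives the plate and the bar the mean ± SD of 5 libraries. Rest is at 0 in every Ret-EGFP+ library and at 18.2 to 34.8 CPM in the non-EGFP libraries, and Kdm1a and Hdac1 are higher in Ret-EGFP+ cells without overlap.

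The demethylase of the complex had the opposite direction. Kdm1a (ENSMUSG00000036940, chr4:136550540-136602723, minus strand) was at 102, 106, 101, 115 and 60.6 CPM in Ret-EGFP+ libraries 1 to 5. In non-EGFP libraries 1 to 5 it was at 32.7, 40.01, 31.2, 40.8 and 18.4 CPM. The groups did not overlap, and library 5 of each group, both from plate 4, was the lowest of its group. The means were 96.9 ± 21.0 and 32.6 ± 9.03 CPM (SD, n = 5 each), a log2 fold change of 1.58 (SE 0.27). The 3′ end of Kdm1a lies within Luzp1, a gene on the other strand. Whether strand was used in the counting is not given in the sources used here, and without it reads of both genes cannot be told apart. Luzp1 itself was at 86.8 ± 23.5 CPM in the Ret-EGFP+ group against 107 ± 34.3 CPM in non-EGFP libraries (log2 fold change −0.31, SE 0.25) and did not pass the threshold.

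The 2 deacetylase genes differed from each other. Hdac1 (chr4:129516104-129542713, minus strand) was at 38.0, 42.1, 38.7, 27.6 and 27.96 CPM in Ret-EGFP+ libraries 1 to 5 and at 20.0, 20.7, 16.5, 15.9 and 21.0 CPM in non-EGFP libraries 1 to 5. Every Ret-EGFP+ library was above every non-EGFP library, and the log2 fold change was 0.88 (SE 0.31). Hdac2 (chr10:36974544-37001889, plus strand) was at 83.2, 46.8, 53.1, 44.7 and 40.02 CPM in the Ret-EGFP+ group against 64.9, 61.1, 34.1, 80.5 and 47.9 CPM in non-EGFP libraries. The Hdac2 groups overlapped, and its log2 fold change was −0.10 (SE 0.28).

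Ehmt2 (chr17:34898469-34914052, plus strand) was at 30.2, 37.4, 42.1, 45.3 and 38.1 CPM in Ret-EGFP+ libraries 1 to 5. Its levels in non-EGFP libraries 1 to 5 were 21.4, 19.6, 13.5, 31.8 and 20.7 CPM. The groups overlapped only through non-EGFP library 4, which lay above Ret-EGFP+ library 1, and the log2 fold change was 0.87 (SE 0.31).

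The RCOR family bridges REST and KDM1A. Rcor1 (chr12:111039351-111115901, plus strand) was at 13.2, 15.4, 23.4, 14.1 and 23.0 CPM in Ret-EGFP+ libraries and at 26.8, 17.8, 14.7, 53.3 and 14.2 CPM in non-EGFP libraries 1 to 5. The groups overlapped, and the log2 fold change of −0.46 (SE 0.40) was close to its error. Rcor2 (chr19:7267325-7275225, plus strand) gave 37 counts over the Ret-EGFP+ libraries, at 2.72, 3.34, 5.26, 7.64 and 0 CPM, and 9 counts over the non-EGFP libraries, at 0, 2.55, 0, 0 and 0.566 CPM. Its log2 fold change was 2.39 (SE 1.30), and with so few counts the fold is not well determined. Rcor3 (chr1:192098546-192138062, minus strand) was at 18, 36.1, 12.9, 22.3 and 23.3 CPM in the Ret-EGFP+ group against 17.2, 11.3, 4.11, 39.7 and 8.78 CPM in non-EGFP libraries. Its highest and lowest values were both in non-EGFP libraries, and the log2 fold change was 0.54 (SE 0.48). The antisense genes Gm26879 and Gm10516 lie over Rcor3, with 1 and 5 counts in the Ret-EGFP+ group against 18 and 10 counts in non-EGFP libraries.

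The other members overlapped between the groups. Sin3a (chr9:57072040-57128366, plus strand) was at 15.3, 30.1, 18.6, 9.41 and 7.67 CPM in the Ret-EGFP+ group against 17.9, 19.6, 9.40, 11.3 and 15.3 CPM in non-EGFP libraries, with a log2 fold change of 0.11 (SE 0.44). Man2c1os, antisense to the end of Sin3a, had 47 counts in the Ret-EGFP+ group against 104 in non-EGFP libraries. Ctdsp1 (chr1:74391509-74397285, plus strand) was at 5.78, 6.68, 1.91, 2.35 and 5.48 CPM in the Ret-EGFP+ group against 6.12, 0.727, 4.11, 0 and 4.53 CPM in non-EGFP libraries (log2 fold change 0.45, SE 0.85). The last 400 bases of Ctdsp1 transcripts match the processed pseudogene Gm31544 over 303 bases at 99.0% identity, so its counts are uncertain.

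The study used DESeq2 at an adjusted p under 0.1, and edgeR was used here at the same threshold. With edgeR, 3 members were called higher in Ret-EGFP+ cells (Kdm1a, Hdac1 and Ehmt2), 1 lower (Rest) and 6 did not pass. Over all 13443 genes tested, 43% were called in either direction, with 21.5% higher and 21.5% lower, and the contrast is the one that chose the members, so nothing is read from the share of 4 in 10. The groups did not overlap for 3 members (Rest, Kdm1a and Hdac1) and for 23.5% of all genes tested. The median log2 fold change was 0.49 over the members and 0.10 over all genes tested. With total counts alone in place of TMM scaling, log2 fold changes of all genes shifted by a median of 0.54, and 4636 genes were higher and 1816 lower in place of 2890 and 2892. Rcor1 then changed sign to 0.09, Hdac2 to 0.46, and Rcor2 and Rcor3 passed the threshold at 2.91 and 1.08. The calls of Hdac1 and Ehmt2 were lost without plate 3, when fewer libraries remained. Without the 6 libraries of plate 3, Hdac1 was at 0.69 and Ehmt2 at 0.70 and neither passed. Hdac1 (0.80) did not pass without plate 2 either. Within plate 3 alone, Kdm1a was at 1.70, Hdac1 at 1.19 and Ehmt2 at 1.14. Rcor2 passed the threshold without non-EGFP library 2 (4.05) and Rcor3 without non-EGFP library 4 (1.09).

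**Figure D2:**
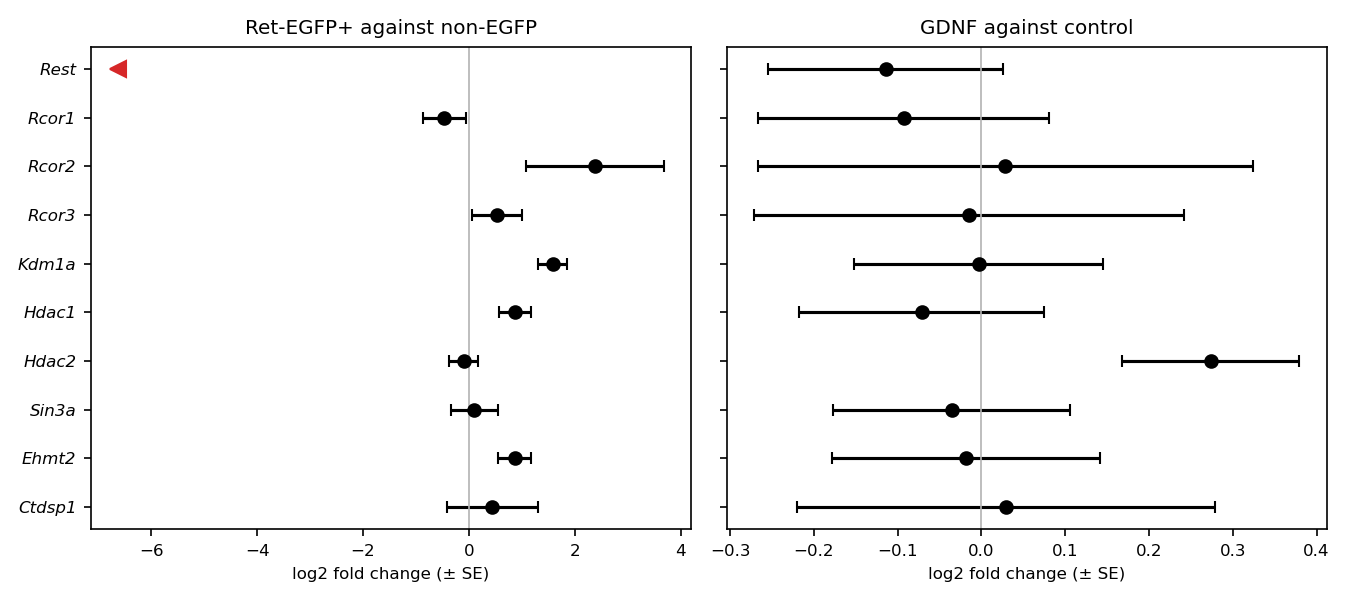
Log2 fold change ± SE (x axes, on different scales) of the 10 genes in sorted cells (left) and organoids (right). The red arrowhead stands for Rest, which is at 0 counts in Ret-EGFP+ cells and is drawn at its bound of 98.4-fold lower in pooled counts. Kdm1a, Hdac1 and Ehmt2 lie to the right of 0 by more than 2 SE in sorted cells, and Hdac2 does so in organoids.

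Other subunits of the same complexes were then counted. Of 31 other corepressor genes, all tested, 8 were called higher in Ret-EGFP+ cells, 3 lower and 20 did not pass. The called share of 35.5% stands beside 43% of all genes tested, and the median log2 fold change of 0.10 equalled, at this rounding, that of all genes tested. The largest rise was that of Ctdspl, a phosphatase of the CTDSP1 family, at 77.4 ± 10.98 CPM in Ret-EGFP+ cells against 8.86 ± 3.09 CPM in non-EGFP cells (log2 fold change 3.11, SE 0.31). Zmym2, a zinc finger partner of the KDM1A complex, rose by 1.74 (SE 0.55) on the log2 scale, and Phf21a, the subunit of that complex that reads unmethylated histone H3 lysine 4, by 1.32 (SE 0.47). Ing1, which brings SIN3A complexes to methylated histone H3, rose by 0.80 (SE 0.27). In the other direction, Sap30, a subunit of the SIN3A deacetylase complex, was at 18.2 ± 2.47 CPM in the Ret-EGFP+ group against 55.2 ± 8.72 CPM in non-EGFP cells (log2 fold change −1.60, SE 0.28). Med19, a Mediator subunit, had a log2 fold change of −1.03 (SE 0.26). The abundant subunits Rbbp7 (0.08, SE 0.22), Arid4b (0.23, SE 0.21) and Smarca4 (0.47, SE 0.22) did not pass. The third gene called lower was Hmg20b, a subunit of the KDM1A complex, at −0.55 (SE 0.25). Without plate 2, plate 3 or plate 4, the number of these genes called was 5, 6 and 5 in place of 11, and it was 5 within plate 3 and 7 at a threshold of 0.05.

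Genes that act on REST itself were measured as well. Srrm3, a splicing factor related to SRRM4, which promotes a neural splice form of REST, had 250 counts in the Ret-EGFP+ group against 8 in non-EGFP libraries. Its levels were 20.6 ± 2.43 and 0.447 ± 0.717 CPM (log2 fold change 5.09, SE 0.74). Srrm4 had 0 counts in all libraries of both tables. Fbxw11, an F-box protein of the ubiquitin ligase family that marks REST for degradation, was at 22.1 ± 3.69 and 7.21 ± 5.27 CPM (1.58, SE 0.47). The deubiquitinases Usp15 (−0.05, SE 0.26) and Usp7 (0.34, SE 0.35) and the telomere protein gene Terf2 (0.38, SE 0.40) did not pass. Of 7 tested genes of this list, 2 (28.6%) were called higher and 0 lower, beside 43% of all genes tested. With total counts alone 6 were called, beside 6452 of all 13443 genes. The number was 4 with the newer quasi-likelihood estimate of edgeR and 1 within plate 3.

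Zinc finger factors with a SNAG domain also recruit KDM1A and RCOR1, through a short amino-terminal peptide. Insm1, a SNAG factor of endocrine cell development, was at 86.1 ± 12.7 CPM in the Ret-EGFP+ group against 7.05 ± 2.77 CPM in non-EGFP cells (log2 fold change 3.53, SE 0.31). Gfi1b had 0 counts in the Ret-EGFP+ group against 38 in non-EGFP libraries and was at least 11.5-fold lower in pooled counts. The 6 tuft cell markers were lower in the same libraries, with a summed level of 3.35 to 12.1 CPM against 400 to 1229 CPM. Markers of Paneth, stem and goblet cells were lower there too, and a link of Gfi1b to any of these cell types was not tested. The other 7 factors of this list did not pass the filter in sorted cells.

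**Figure D3:**
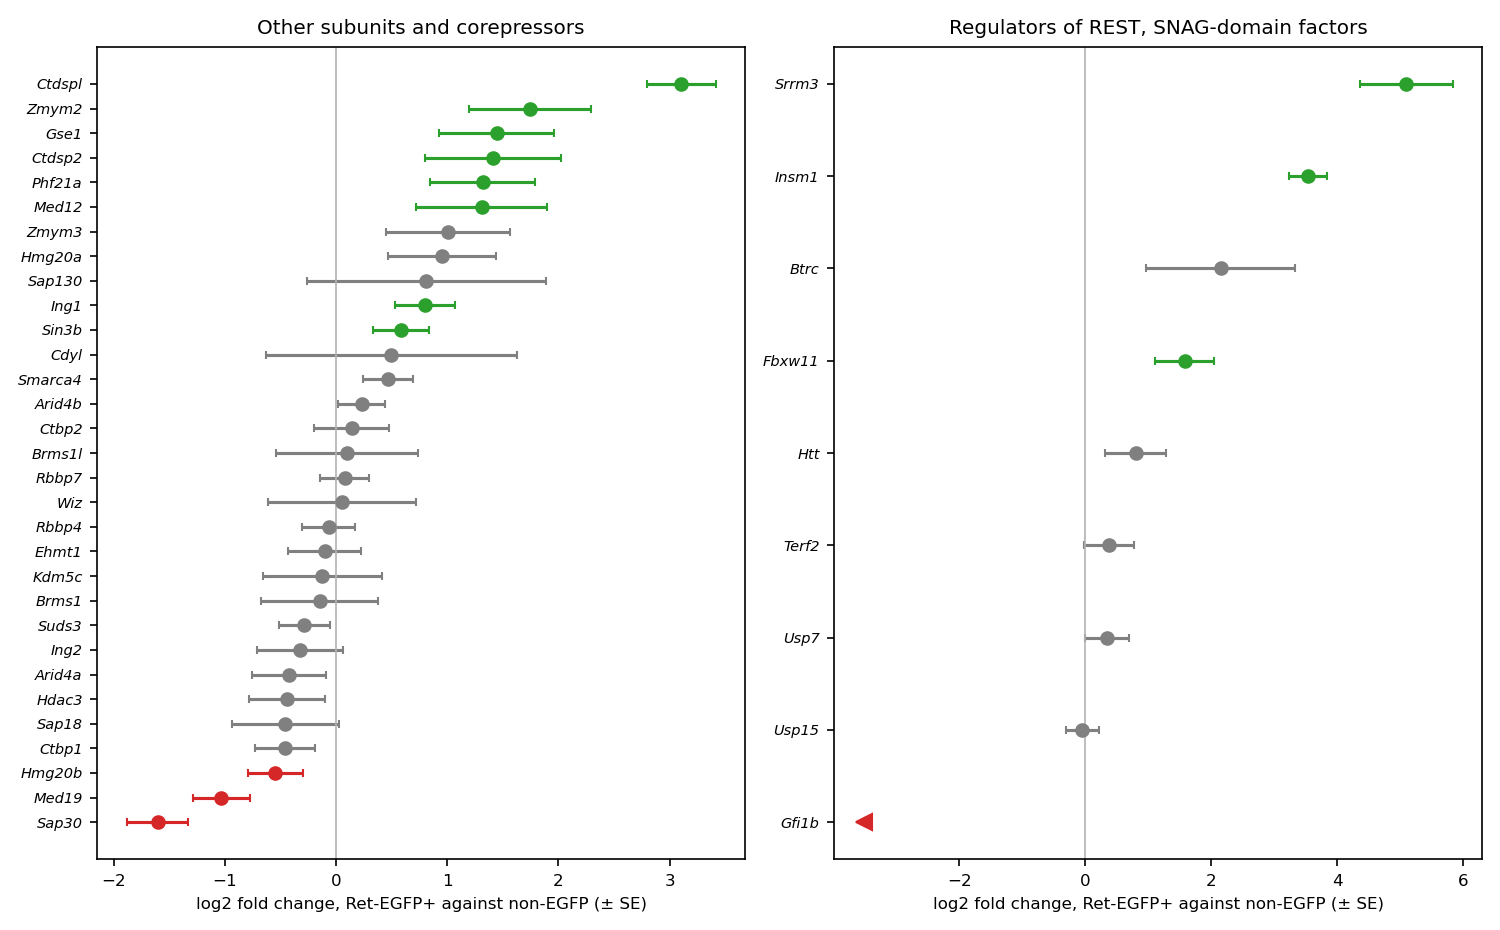
Log2 fold change ± SE in sorted cells (x axis) of 31 other subunits and corepressors (left) and of 9 tested regulators of REST and SNAG-domain factors (right). Green marks genes called higher and red genes called lower in Ret-EGFP+ cells at an adjusted p under 0.1, grey those that did not pass, and the arrowhead the bound of Gfi1b. Ctdspl, Srrm3 and Insm1 lie farthest to the right, and Sap30 and Med19 farthest to the left of the genes with counts in both groups.

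The list of 50 known REST targets held genes of synapses, ion channels and secretory granules. In sorted cells 38 were tested, of which 33 were called higher in Ret-EGFP+ cells, 1 lower and 4 did not pass. The called share of 89.5% stands beside 43% of all genes tested. The other 12 targets had too few counts in both groups to be tested. Genes that passed the filter through their level in 1 group had to differ, so the count and the share are a description. Scg2, a secretogranin of dense-core granules, was at 1903 ± 153 CPM in the Ret-EGFP+ group against 19.5 ± 6.85 CPM in non-EGFP cells (log2 fold change 6.57, SE 0.26). Scg3, which binds granins, was at 515 ± 111 and 12.3 ± 9.32 CPM (5.35, SE 0.34). Nefm, a neurofilament subunit, was at 105 ± 15.9 and 2.51 ± 2.14 CPM (5.45, SE 0.43). Genes of exocytosis and granule content were also higher, among them the complexin gene Cplx2 (3.97, SE 0.34), the SNARE gene Snap25 (4.75, SE 0.44) and the granin gene Chgb (3.18, SE 0.28). Levels of Chgb were the highest of the list, at 14999 ± 2540 and 1655 ± 897 CPM.

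Of the targets with a printed match, Celsr3 had 122 counts in the Ret-EGFP+ group against 3 in non-EGFP libraries, a ratio of 44.9 (exact 95% counting interval 15.0 to 221). Gria2 had 69 counts and 1 count, a ratio of 76.2 (13.2 to 3051). Syn1 had 28 counts and 0, and was at least 10.3-fold higher in Ret-EGFP+ cells. Grin1 had 19 and 21 counts and did not pass (−0.14, SE 1.19). The adhesion gene L1cam (−0.66, SE 0.52), the presynaptic scaffold gene Bsn (−2.11, SE 1.103) and Atp2b2 also did not pass. Chat, the enzyme of acetylcholine synthesis and a gene of tuft cells in the intestine, had 0 counts in the Ret-EGFP+ group against 49 in non-EGFP libraries and was at least 14.8-fold lower.

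The median log2 fold change of the 38 tested targets was 4.72, or 4.09 with the 8 genes at 0 counts in a group set to their bounds, beside 0.10 over all genes tested. The groups did not overlap for 28 of the 38, beside 23.5% of all genes tested. The median and the overlap are also a description, since targets that passed the filter through Ret-EGFP+ counts alone had to differ. Chga, Chgb and Scg3 of this list are also among the 10 enteroendocrine markers, all of which were called higher, and the markers summed to 19283 to 27102 CPM in the Ret-EGFP+ group against 1035 to 3475 CPM in non-EGFP libraries. Whether the targets differed for a reason other than this difference in cell type was not tested.

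**Figure D4:**
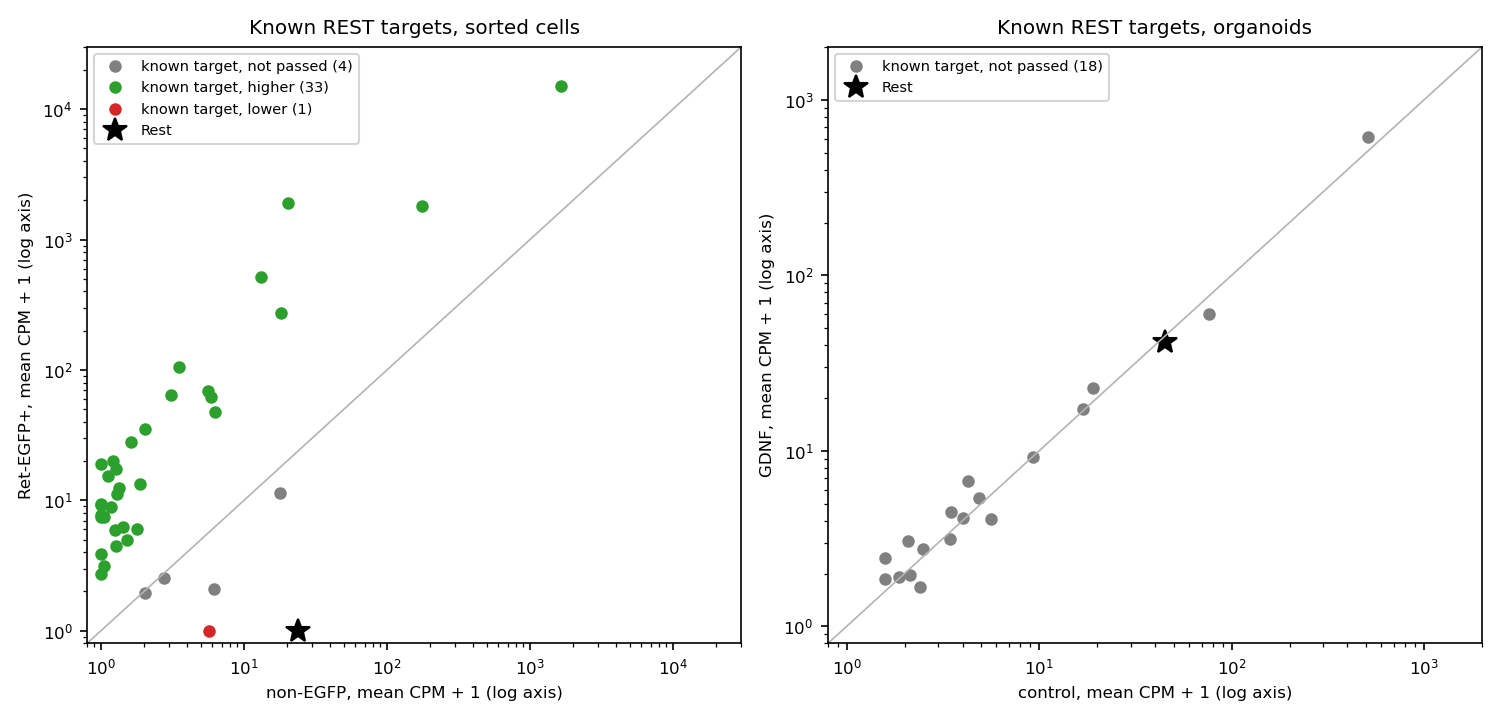
Mean level of the tested known REST targets and of Rest (star), as CPM + 1 on log axes, in sorted cells (left, Ret-EGFP+ against non-EGFP, 38 targets) and organoids (right, GDNF against control, 18 targets). The line marks equal levels. In sorted cells 33 targets are called higher (green) and 1 lower (red) while Rest lies at 0 CPM in Ret-EGFP+ cells, and in organoids no target passes and Rest lies near the line.

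Whether GDNF changed the members was examined in organoids, with the experiment as a block. Of the 10 members, 0 were called by edgeR or by DESeq2 at an adjusted p under 0.1, and 1 had an unadjusted edgeR p under 0.05. Over all 12170 genes tested, 0.666% were called by edgeR, with 0.534% higher and 0.131% lower, and 6.90% had an unadjusted p under 0.05. The groups overlapped for all 10 members, as they did for all but 0.255% of the genes tested. The median log2 fold change was −0.02 over the members and 0.00 over all genes tested.

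Rest was present in every organoid library. In control organoids it was at 37.1 to 54.2 CPM with a median of 40.8, and in GDNF-treated organoids at 32.5 to 49.6 CPM with a median of 40.5. The means were 44.2 ± 7.72 and 40.8 ± 7.92 CPM (SD, n = 6 each). The log2 fold change was −0.11 (SE 0.14, 95% interval −0.40 to 0.17, adjusted p = 0.949, edgeR). In experiment 1 the control libraries were at 53.6 and 37.1 CPM and the GDNF libraries at 32.5 and 33.4 CPM. In experiments 2 and 3 the libraries of the treatments overlapped, with ratios of 0.05 and 0.02 on the log2 scale against −0.46 in experiment 1. Without experiment 1 the log2 fold change was 0.03. Ordered by mean level, Rest was at 0 CPM in Ret-EGFP+ cells, 22.9 in non-EGFP cells, 40.8 in GDNF-treated and 44.2 in control organoids. The 2 organoid groups did not differ beyond their spread, and the sorted and organoid tables were normalised separately, so levels across them are set side by side without a test.

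Hdac2 was the member with an unadjusted p under 0.05. In control organoids it was at 56.5 to 111 CPM with a median of 98.4, and in GDNF-treated organoids at 89.8 to 127 CPM with a median of 113. The groups overlapped, but in each experiment the mean of the GDNF libraries was higher, by 0.44, 0.23 and 0.21 on the log2 scale in experiments 1 to 3. The log2 fold change was 0.27 (SE 0.11, 95% interval 0.06 to 0.49), and it did not pass after adjustment (adjusted p = 0.509, edgeR). Without experiment 1 it was 0.22, and it ranged from 0.22 to 0.31 when each library was left out in turn.

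**Figure D5:**
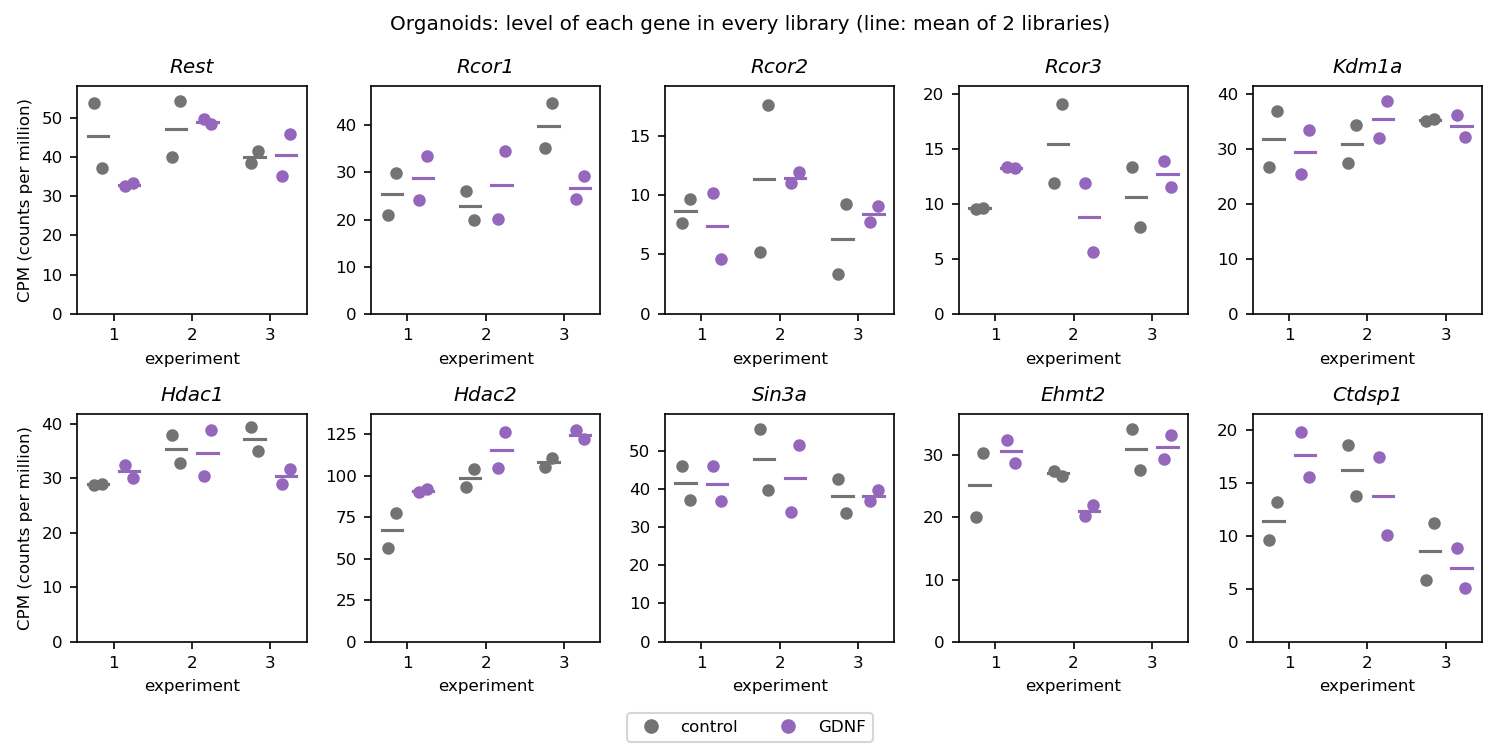
Level of each of the 10 genes in every organoid library, in CPM (y axis of each panel), by experiment (x axis) and treatment (grey control, purple GDNF). The lines are means of 2 libraries. The treatments overlap for every gene over the 3 experiments, and the GDNF mean of Hdac2 lies above the control mean in each experiment.

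The other members did not pass, and their 95% intervals give the range of changes that these libraries allow. Kdm1a was at 25.5 to 38.9 CPM with GDNF and at 26.8 to 37.1 CPM in controls, with a log2 fold change of −0.00 (SE 0.15, interval −0.30 to 0.29). Hdac1 was at 28.9 to 38.9 and 28.7 to 39.3 CPM (−0.07, SE 0.15, interval −0.37 to 0.22). Sin3a was at 33.96 to 51.4 and 33.6 to 55.7 CPM (−0.04, SE 0.14, interval −0.32 to 0.25). Ehmt2 was at 20.2 to 33.2 and 20.1 to 34.3 CPM (−0.02, SE 0.16, interval −0.34 to 0.30). These 4 genes had similar errors. The RCOR genes were less precise. Rcor1 was at 20.2 to 34.5 and 19.9 to 44.8 CPM (−0.09, SE 0.17, interval −0.44 to 0.26). Rcor2, with 88 and 75 counts in all, was at 4.61 to 11.9 and 3.34 to 17.6 CPM (0.03, SE 0.30, interval −0.57 to 0.62). For Rcor3 the ranges were 5.65 to 14.0 and 7.91 to 19.1 CPM (−0.01, SE 0.26, interval −0.53 to 0.50), and for Ctdsp1 5.04 to 19.7 and 5.85 to 18.6 CPM (0.03, SE 0.25, interval −0.47 to 0.53). Adjusted p values of these 8 members were 0.965 to 0.999 (edgeR). Without experiment 1, 0 of the 10 members were called, with log2 fold changes from −0.31 for Ctdsp1 to 0.22 for Hdac2.

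The GDNF effect did not differ detectably between experiments for any member. The smallest interaction p values of edgeR were those of Rcor1 (adjusted p = 0.984), with ratios of 0.18, 0.25 and −0.58 on the log2 scale in experiments 1 to 3, and Rcor3 (adjusted p = 0.990), with 0.47, −0.82 and 0.26. Of 12170 genes tested, 6 showed such a difference at an adjusted p under 0.1, and 0 of the 10 members had an unadjusted p under 0.05.

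The related genes did not pass in organoids either. By edgeR and by DESeq2, 0 of 31 other corepressors, 0 of 6 tested regulators of REST, 0 of 4 tested SNAG factors and 0 of 18 tested targets were called, and 3, 0, 0 and 3 of them had an unadjusted edgeR p under 0.05. The median log2 fold changes of these lists were 0.02, −0.05, −0.56 and 0.15. The abundant subunits Rbbp7 (0.16, SE 0.10), Smarca4 (−0.08, SE 0.10) and Ctbp1 (0.06, SE 0.10) were among them, as were Usp7 (−0.05, SE 0.11), Usp15 (−0.05, SE 0.12) and Fbxw11 (−0.13, SE 0.17). Of the granin genes, Chgb was at 609 ± 63.6 CPM with GDNF and at 509 ± 69.7 CPM in controls (0.25, SE 0.09, adjusted p = 0.398, edgeR), and Chga at 59.3 ± 9.27 and 75.4 ± 16.4 CPM (−0.34, SE 0.12, adjusted p = 0.393, edgeR). Bsn had a log2 fold change of 0.27 (SE 0.19). Of the SNAG factors, Insm1 (−0.54, SE 0.67), Gfi1 (−1.17, SE 0.66) and Snai3 (1.29, SE 0.68) had 29 to 34 counts each over the 12 libraries. Only Chgb was called in an alternative, without experiment 1 and without the first control library of that experiment.

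The genes whose levels followed Rest most closely were listed by Pearson's r of log2(CPM + 1), as a description, because the libraries of each table share their groups and depths. Over the 10 sorted libraries, among 9311 genes, these were Lrrc26 (r = 0.995), Marc2 (r = 0.995), the antimicrobial lectin gene Reg3b (r = 0.994), Ascl2 (r = 0.993) and Slfn9 (r = 0.993). Both groups are in this correlation, and these genes are low or at 0 in Ret-EGFP+ cells, as Rest is. Over the 12 organoid libraries, among 8935 genes, they were Uchl5, a deubiquitinase of the proteasome (r = 0.928), Trim11 (r = 0.848), Lyar (r = 0.847), the condensin subunit Smc2 (r = 0.833) and the RNA helicase Ddx39 (r = 0.832). No gene was in both lists. Among the members, r with Rest over the sorted libraries was −0.899 for Kdm1a, −0.884 for Hdac1 and −0.828 for Ehmt2. It was −0.636 for Rcor2, −0.422 for Rcor3, −0.294 for Ctdsp1, −0.00665 for Sin3a, 0.129 for Hdac2 and 0.299 for Rcor1. Rest was at 0 in every Ret-EGFP+ library, so these values largely repeat the group difference that chose the members. Over the organoid libraries r was 0.0379 for Kdm1a, 0.0567 for Hdac1, −0.681 for Ehmt2 and 0.512 for Rcor2. Rcor1, Rcor3, Sin3a, Hdac2 and Ctdsp1 lay between −0.373 and 0.096 there.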

How the data were processed

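RNA was measured at the 3′ end of transcripts in 10 sorted and 12 organoid libraries. The authors deposited whole-number counts per Ensembl gene, made by alignment with STAR (version 2.7.8a per the submitters' processing notes) to GRCm38 and counting with BRB-seqTools. The study describes them as counts of molecular identifiers of 8 bases, which can take 65536 sequences. Among the sorted libraries, 32 values are above this number, so counts there are not distinct identifiers, and intervals and floors cover counting error only. A reporter row that is no mouse gene was left out. Groups, plates and experiments came from the deposited sample sheets, and libraries were numbered as their columns are ordered.

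Differences were tested by the quasi-likelihood method of edgeR 4.0.16 (R 4.3.3) with TMM factors. Genes needed a total of 5 counts and a mean normalised count of 1, and were called at a Benjamini-Hochberg adjusted p under 0.1. These filters and this threshold are those of the study, which tested with DESeq2. The experiment was a block in the organoid fit, since the libraries of an experiment share a mouse. Standard errors were derived from the log2 fold change and its F statistic. Folds against 0 counts compared the pooled counts of a group with a floor of 3 counts over the other. The scripts were tested on simulated data. Alternatives were DESeq2 1.42.0, its size factors, total counts alone, filterByExpr, no filter, a threshold of 0.05, no block, sums per experiment and treatment, and each library, experiment or plate left out. The plate as a term, plate 3 alone, the sequencing pool as a term, robust shrinkage and the newer quasi-likelihood estimate of edgeR were added after seeing the data. Gene positions came from GENCODE M21 and near copies from blastn 2.17.0 (at least 61 bases at 90% identity).

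The members and all gene lists were chosen with earlier results of these data known. Named are all members, and of each related list up to 6 called genes by smallest p and up to 3 abundant genes that did not pass, for each comparison, and the 5 genes most correlated with Rest among those with a mean of at least 10 counts. Hmg20b, Celsr3, Gria2, Syn1, Mcm5, Apoa4, Ctbp2, Chat, Atp2b2, Srrm4 and the neighbouring genes are outside this rule and were picked once their values had been seen. A result for 1 further gene is not reported here.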

Additional observations from a re-analysis of the deposited data

Results flagged for a closer look

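Each group of each member was examined for a library apart from the others, 40 groups in all, of which chance alone puts about 1 in 20 past the limit used (the 95% critical value of Dixon's test). Rest in non-EGFP library 1 was higher than in the other 4, at 34.8 CPM. Rcor2 in non-EGFP library 2 was higher than in the others, at 2.55 CPM (7 of the 9 counts of its group). Kdm1a in Ret-EGFP+ library 5 was lower than in the others, at 60.6 CPM. In the second GDNF library of experiment 2, Rcor3 was lower than in the other GDNF libraries, at 5.65 CPM, and Hdac1 higher, at 38.9 CPM.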

How the results depend on the processing

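In sorted cells, 4 members and 34 known targets were called, and Rest and Kdm1a were called in the same direction under every alternative. The members were chosen by the difference of Rest in this contrast, so these calls are a description and give no support. The members called were 2 without plate 3, and with each library left out in turn 4 to 5. The targets called were 21 with filterByExpr, which left 8793 genes to test. Over all genes, 5782 were called in sorted cells and 3129 within plate 3, where 6 libraries remained. In organoids 0 members were called under every alternative. There 81 genes were called with the experiment as a replicate block, which is the mouse, and 7 with no replicate block. The count was 35 without experiment 2 and 46 without experiment 3, and 49 to 92 with each library left out, the lowest without the second GDNF library of experiment 2. Known targets called in organoids were 0, 1 without experiment 1 and 0 to 1 with each library left out. The cause of these changes was not tested where fewer samples or genes do not account for it. Counts of the members limit the precision most for Rcor2 and Ctdsp1, with 46 and 106 counts over the sorted libraries.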
